A study of Homo sapiens with 9 samples.

Results

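The 40 genes described here encode the nucleolar machinery that makes ribosomes, together with MYC, a transcription factor known to activate many of them. They were chosen by gene name: a probe counted when its name in the deposited table was the gene's symbol or an older symbol of it, and the brightest probe stood for the gene. All 40 had a probe, among 30817 genes named on the array. Illumina bead arrays, 9 in 3 groups of 3, gave the RNA levels of NCI-H716, an established human line from a colorectal tumour whose cells resemble hormone-producing gut cells. The groups were NCI-H716 cells with a YAP mutant vector, the same cells with a control vector, and untreated cells. YAP is the transcriptional coactivator that the Hippo pathway restrains, and the series is titled as an over-expression of YAP1, but the labels give neither the mutation nor the vector, the time after its delivery or whether clones or pools were used. Nothing in them says that the replicates were separate cultures, so the p-values below measure only the spread between these arrays.

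Ribosome production starts when RNA polymerase I copies the ribosomal DNA repeats in the nucleolus, with UBTF holding the repeats open. Small nucleolar ribonucleoproteins (snoRNPs) then modify the precursor RNA, those of the box C/D class by methylation and those of the box H/ACA class by pseudouridylation, and large sets of assembly factors fold and cut it into the small and the large subunit. MYC, bound with its partner MAX to the E-box CACGTG, activates genes of every one of these steps, and growing tumour cells, colorectal ones included, commonly show high levels of both MYC and the nucleolar genes.

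Promoter windows are shown for the pair of genes that differed between groups by the test, NOP56 and NIP7, and for BYSL and MRTO4, which carry an E-box and had an unadjusted p under 0.05 in the same comparison. Each window runs 5′ to 3′ from 250 bases before to 50 after the transcription start in RefSeq (GRCh38.p14), all on the plus strand: chr20:2652382-2652681 for NOP56, chr16:69339522-69339821 for NIP7, chr6:41921249-41921548 for BYSL and chr1:19251555-19251854 for MRTO4. Capitals mark CACGTG, which reads the same on both strands and was the only motif searched.
NOP56: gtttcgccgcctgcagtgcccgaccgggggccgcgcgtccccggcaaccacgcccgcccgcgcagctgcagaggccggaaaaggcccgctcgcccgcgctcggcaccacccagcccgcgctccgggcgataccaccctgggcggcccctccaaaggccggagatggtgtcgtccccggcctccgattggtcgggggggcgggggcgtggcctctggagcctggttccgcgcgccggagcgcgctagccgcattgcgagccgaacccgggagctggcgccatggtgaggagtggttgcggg
NIP7: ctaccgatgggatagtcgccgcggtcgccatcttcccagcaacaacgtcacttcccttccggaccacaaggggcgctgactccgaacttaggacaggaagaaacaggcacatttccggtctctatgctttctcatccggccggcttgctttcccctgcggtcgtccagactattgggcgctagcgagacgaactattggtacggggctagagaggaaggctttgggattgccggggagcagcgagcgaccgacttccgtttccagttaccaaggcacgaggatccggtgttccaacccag
BYSL: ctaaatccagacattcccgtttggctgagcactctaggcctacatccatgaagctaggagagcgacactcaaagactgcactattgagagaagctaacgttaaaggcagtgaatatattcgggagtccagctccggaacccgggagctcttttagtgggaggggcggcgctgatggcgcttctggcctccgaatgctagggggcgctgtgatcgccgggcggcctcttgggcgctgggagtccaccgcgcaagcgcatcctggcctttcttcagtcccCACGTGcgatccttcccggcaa
MRTO4: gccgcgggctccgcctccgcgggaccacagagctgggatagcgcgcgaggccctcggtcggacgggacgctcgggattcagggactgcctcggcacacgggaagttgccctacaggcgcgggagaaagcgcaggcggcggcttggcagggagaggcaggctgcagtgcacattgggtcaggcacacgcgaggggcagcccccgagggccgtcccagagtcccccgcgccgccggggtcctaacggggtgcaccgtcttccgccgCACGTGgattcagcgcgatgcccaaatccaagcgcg
The E-box began 28 bases after the start in BYSL and 14 bases after it in MRTO4, and the windows of NOP56 and NIP7 held none. The RefSeq promoter table used here held a window for 32 of the 40 genes, and 12 of these (37.5%) held at least 1 E-box, IMP4 holding 2. Among all 27305 windows of that table the share was 7.43%, and among the 9231 tested genes with a window it was 10.4%. Other ribosome biogenesis genes, outside the 40, had a share closer to theirs, 32 of 106 with a window (30.2%). Of the 13 E-boxes in the nucleolar genes, 11 lay within 50 bases of the start, from 15 bases before it to 35 after it. By role, 7 of the 9 small subunit genes with a window had an E-box (UTP20, WDR43, NOP14, RRP9, IMP4, BYSL and NAT10), against 3 of 9 large subunit genes and 0 of 4 RNA polymerase I genes. A match of letters is a description and does not show that MYC binds there.

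Median raw signals of the arrays ran from 104.2 to 128.8, with control vector replicate 3 (104.2) and YAP mutant vector replicate 1 (104.6) the dimmest, and each array had 38.9% to 41.2% of its probes over the background floor. The single probe of YAP1 averaged a log2 signal of 7.93 on YAP mutant vector arrays, 7.86 on control vector arrays and 8.16 in untreated cells, and differed between the vectors by 0.07 ± 0.11 (SE; limma, adjusted p = 0.964). The part of the transcript that this probe reads is not given in the sources used here, so it does not check the labels. Of 14 markers of intestinal and enteroendocrine cells, 11 were measurable, among them GCG, CHGA, CHGB and CDX2 on all 9 arrays, while CDH1, KRT20 and VIL1 were above the floor on none. Against untreated cells, SCG2 (-0.87) and PCSK1 (-0.57) were called lower and KRT8 (0.50) higher with the YAP mutant vector, SCG2 (-0.43) was called lower with the control vector, and the mean log2 signal of the 11 was 9.97 to 10.03 with the YAP mutant vector, 9.92 to 10.05 with the control vector and 10.06 on each untreated array. Some fibroblast markers were also measurable: 6 of 8 passed the floor, with FAP, LUM and COL3A1 above it on all 9 arrays and DCN and PDGFRB on none. The rest lay near the floor. COL1A1 was above it on 0 YAP mutant vector, 2 control vector and 1 untreated arrays, COL1A2 on 3, 1 and 2, and PDGFRA on 3, 3 and 0. The mean log2 signal of the 6 fibroblast markers was 8.64 to 8.84 with the YAP mutant vector, 8.70 to 8.80 with the control vector and 8.52 to 8.59 in untreated cells, and LUM was called higher with the YAP mutant vector than in untreated cells (0.51; limma, adjusted p = 0.0159). For 5 of 8 blood cell markers it was 8.66 to 8.84, 8.81 to 8.89 and 8.62 to 8.66 in the same groups, with PTPRC and CD3E above the floor on none. Against untreated cells, 1 of these 5 was called lower with the YAP mutant vector (-0.50, adjusted p = 0.00383) and 2 higher with the control vector, CD14 (0.43, adjusted p = 0.0381) and 1 other (0.45, adjusted p = 0.0444). No marker of these lists was called between the vectors. Only ESAM of 6 endothelial markers was measurable, and its signal overlapped between the groups. The part of these markers in the results was not tested. In bulk RNA, fewer cells of a type and less RNA per cell cannot be told apart.

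Of the 40 genes, 38 passed the background floor and were tested, 36 of them above it on all 9 arrays. POLR1A and POLR1B, subunits of RNA polymerase I, were above it on 2 arrays of each vector group and 3 untreated arrays. TCOF1, which encodes the polymerase I cofactor treacle, lay below the floor on every array with all 4 of its probes, between 5.81 and 6.32 for the brightest. NPM1, the abundant nucleolar chaperone nucleophosmin, also lay below it on every array, with a log2 signal of 5.91 to 6.37 with the YAP mutant vector, 5.84 to 6.43 with the control vector and 6.09 to 6.29 in untreated cells. Its only probe therefore gave no measure of the gene. The tested genes had bright probes, 22 of 38 lying above the upper quartile of all genes tested (log2 signal 9.47), although signals of different probes do not rank transcripts.

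The nucleolar genes stood lowest on the YAP mutant vector arrays and highest on the untreated arrays. The difference of each of the 38 genes from its own mean over the 9 arrays had a median of -0.05, -0.09 and -0.13 on the log2 scale on the 3 YAP mutant vector arrays. The median was 0.02, 0.02 and -0.05 on the control vector arrays and 0.08, 0.07 and 0.06 on the untreated arrays. The untreated arrays were apart from both vector groups, whereas the vector groups nearly touched: the highest YAP mutant vector array lay at -0.0520, just under control vector replicate 3, the dimmest array, at -0.0506. Over all 15589 genes tested the same median stayed between -0.01 and 0.01 on every array. Quantile normalization gives all arrays the same distribution of signals. This median and the all-gene medians of the 3 comparisons were therefore kept small by the processing. The SD of the nucleolar median between arrays of a group, pooled over the groups, was 0.03.

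**Figure D1:**
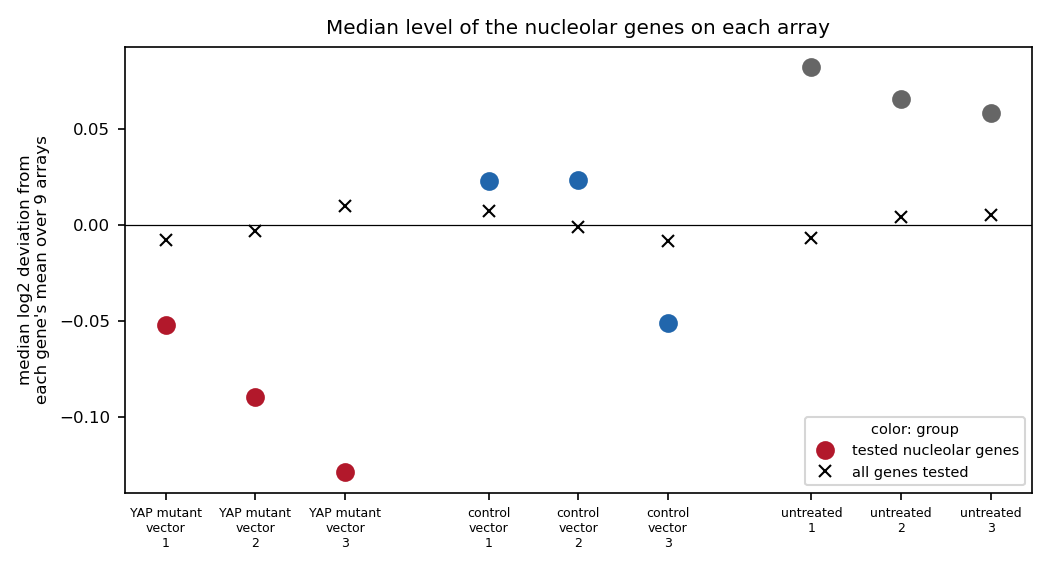
Median log2 deviation (vertical axis) of the 38 tested nucleolar genes from each gene's mean over the 9 arrays (dots, red for YAP mutant vector, blue for control vector, grey for untreated) and of all genes tested (crosses), with 1 array per position on the horizontal axis. The YAP mutant vector arrays lie between -0.13 and -0.05, the control vector arrays between -0.05 and 0.02 and the untreated arrays between 0.06 and 0.08.

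Comparing YAP mutant vector and control vector arrays addresses mutant YAP apart from the vector that carries it. No nucleolar gene passed the test: 0 of 38 had an adjusted p under 0.05 (limma, Benjamini-Hochberg over all genes tested), where 0.34% of all genes did. The estimates lay mostly on the low side, 29 of 38 (76.3%) below 0 against 50.1% of all genes, with a median log2 difference of -0.09 against 0.00. At an unadjusted p under 0.05, 5 genes were lower (13.2%, against 2.7% of all genes) and 1 was higher (against 3.79%). The 3 arrays of each group did not overlap for 8 genes in the lower direction (21.1%, against 5.63% of all genes) and for RRP1 in the higher direction (2.63%, against 5.84%). The 8 genes were NOP58, NOLC1, GAR1, RRP12, IMP3, BOP1, WDR12 and EBNA1BP2. By the other probes of GAR1 and WDR12 the groups overlapped. That of WDR12, nearly as bright (mean log2 signal 9.93 against 9.97), differed by -0.02. Without control vector replicate 1 the median was -0.053, and without both dim arrays it was -0.15.

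Against untreated cells, NOP56 and NIP7 fell with the YAP mutant vector. They were 2 of 38 genes (5.26%) in a comparison that called 5.17% of all genes, so the share called was near the background, although in the lower direction alone 1.81% of all genes were called. No nucleolar gene was called higher, as 3.36% of all genes were. Estimates were below 0 for 33 of 38 genes (86.8%, against 51.6% of all genes), and the median log2 difference was -0.17 against -0.01. At an unadjusted p under 0.05, 10 genes were lower (26.3%, against 8.67%) and 0 higher (against 9.71%). The groups did not overlap for 13 genes, all lower (34.2%, against 11.3% of all genes, while 11.9% lay apart on the high side): NOP56, NOP58, NOLC1, DKC1, GAR1, NOP14, RRP12, IMP4, BYSL, NAT10, BOP1, PPAN and NIP7. Among all genes above the upper quartile of signal, where 22 of the 38 lie, these background shares were higher. There 14.6% lay apart on the low side and 14% on the high side. At an unadjusted p under 0.05 (limma), 10.8% of them were lower. The same YAP mutant vector arrays enter this comparison and the previous one.

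Between the control vector and untreated cells, which asks what a vector does without mutant YAP, no nucleolar gene passed the test (0 of 38, against 2.18% of all genes). Estimates were below 0 for 28 of 38 genes (73.7%, against 50.9% of all genes), with a median of -0.08 against 0.00. At an unadjusted p under 0.05, MRTO4, NIP7 and UBTF were lower (7.89%, against 6.68%) and MYC was higher (against 7.24%). The groups did not overlap for 6 genes, all lower (15.8%, against 8.92% of all genes, while 9.79% lay apart on the high side): POLR1A, NHP2, UTP20, NAT10, RRP1 and MRTO4. For NHP2 this holds only for its brightest probe (-0.09). A dimmer NHP2 probe went the other way by 0.19, with all control vector arrays (10.15 to 10.23) above all untreated arrays (9.96 to 10.06). Without control vector replicate 3 the median was -0.047. The untreated arrays are shared with the comparison before, and the control vector arrays with the first.

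**Figure D2:**
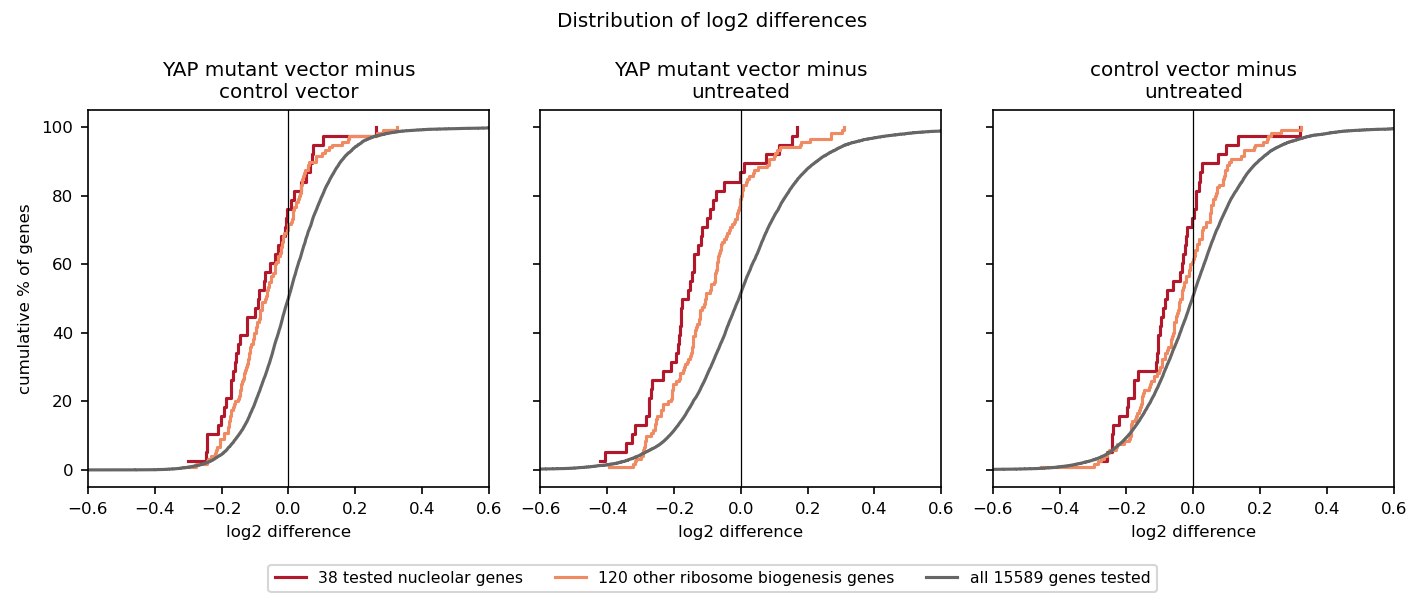
Cumulative percent of genes (vertical axis) against the log2 difference (horizontal axis, cropped at -0.6 and 0.6) in each comparison, for the 38 tested nucleolar genes (red), 120 other ribosome biogenesis genes (orange) and all 15589 genes tested (grey). The red curve crosses 50% at -0.09, -0.17 and -0.08 from left to right. The grey curve crosses it at about 0 in each panel, where quantile normalization keeps it.

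MYC, the transcription factor of the set, was highest on average with the control vector and lowest in untreated cells, without passing the test. Its log2 signals were 11.72, 11.61 and 11.97 with the YAP mutant vector, 12.03, 12.05 and 11.68 with the control vector, and 11.54, 11.69 and 11.57 in untreated cells. The control vector arrays held the 2 highest values, but their replicate 3 lay within the untreated range, so the groups overlapped in each comparison. The difference was -0.15 ± 0.12 (SE, n = 3 per group) between the vectors (limma, adjusted p = 0.913). Against untreated cells it was 0.17 for the YAP mutant vector (adjusted p = 0.486) and 0.32 for the control vector (adjusted p = 0.190; unadjusted p = 0.0125). A second, dimmer MYC probe differed by -0.15, 0.20 and 0.34 in the same 3 comparisons. Leaving out 1 array moved the MYC difference between the vectors from -0.27 without control vector replicate 3 to -0.07 without YAP mutant vector replicate 2. Against untreated cells it ran from 0.07 without YAP mutant vector replicate 3 to 0.25 without replicate 2 for the YAP mutant vector, and from 0.25 without control vector replicate 2 to 0.44 without replicate 3 for the control vector.

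The 4 tested RNA polymerase I genes had a median difference of 0.03 between the vectors, and of -0.16 with the YAP mutant vector and -0.21 with the control vector from untreated cells. UBTF, the factor that keeps the ribosomal repeats open, had log2 signals of 7.1566, 7.1158 and 6.9998 with the YAP mutant vector, 7.1409, 7.0299 and 6.8776 with the control vector, and 7.5839, 6.9953 and 7.2442 in untreated cells. The untreated arrays spread over a wider range than the others, with replicate 1 the highest of the 9, and the groups overlapped. UBTF differed by 0.07 ± 0.12 (SE) between the vectors, by -0.18 from untreated cells with the YAP mutant vector (limma, adjusted p = 0.469), and by -0.26 with the control vector (adjusted p = 0.358). A second, dimmer UBTF probe above the floor differed by 0.03, -0.07 and -0.10 in the same order. By the brightest probe, leaving out 1 array moved the control vector difference from untreated cells between -0.40 and -0.10. The polymerase subunits POLR1A, POLR1B and POLR1C differed between the vectors by -0.01, 0.10 and -0.06. Against untreated cells they differed by -0.18, -0.14 and -0.12 with the YAP mutant vector and by -0.18, -0.24 and -0.06 with the control vector, and none passed the test.

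Box C/D snoRNP genes had the lowest median of the roles with 3 or more tested genes, -0.22 between the vectors and -0.31 between YAP mutant vector and untreated cells. NOP56 (probe ILMN_1787628), a core scaffold protein of these particles, had log2 signals of 10.34, 10.57 and 10.30 with the YAP mutant vector, 10.80, 10.50 and 10.52 with the control vector, and 10.87, 11.01 and 10.61 in untreated cells. Every YAP mutant vector array was below every untreated array, and the control vector arrays spanned the gap and overlapped both groups. NOP56 was 0.746 times its untreated level with the YAP mutant vector, a log2 difference of -0.42 ± 0.12 (SE; limma, adjusted p = 0.0395). The difference was -0.20 from the control vector (adjusted p = 0.849), and -0.22 between the control vector and untreated cells (adjusted p = 0.430). The other probes of NOP56, both dimmer, lay at -0.55 and -0.29 between YAP mutant vector and untreated cells. Its call was lost on leaving out YAP mutant vector replicate 1 (-0.39, adjusted p = 0.126) or 3 (-0.37, adjusted p = 0.148), or untreated replicate 1 (-0.40, adjusted p = 0.112) or 2 (-0.33, adjusted p = 0.199). It was also lost without both dim arrays (-0.39, adjusted p = 0.117), with the common-median scaling of arrays (-0.58, adjusted p = 0.120) and with no filter on dim probes (-0.42, adjusted p = 0.0502).

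NOLC1, a chaperone of snoRNP assembly and transport, had log2 signals of 8.12, 8.18 and 8.23 with the YAP mutant vector, 8.52, 8.44 and 8.31 with the control vector, and 8.65, 8.51 and 8.40 in untreated cells. The YAP mutant vector arrays were the lowest 3 of the 9. The difference of NOLC1 was -0.24 ± 0.10 (SE) from the control vector (limma, adjusted p = 0.677) and -0.34 from untreated cells (adjusted p = 0.0536), which passed the threshold without control vector replicate 3 (-0.35, adjusted p = 0.0476). Leaving out 1 array moved the NOLC1 difference from untreated cells between -0.40 and -0.28. Over the 20 alternatives its adjusted p (limma) reached 0.207. NOP58, the partner of NOP56, had log2 signals of 11.16, 11.12 and 11.06 with the YAP mutant vector, 11.47, 11.34 and 11.26 with the control vector, and 11.32, 11.59 and 11.26 in untreated cells. Here too the YAP mutant vector arrays were the lowest, and the other groups overlapped each other. NOP58 differed by -0.24 ± 0.11 (SE) from the control vector (limma, adjusted p = 0.701) and by -0.28 from untreated cells (adjusted p = 0.153). FBL, the methyltransferase of the same particles and a gene with an E-box 6 bases after its start, went the other way, with 0.02 between the vectors and 0.12 against untreated cells (adjusted p = 0.606).

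Of the box H/ACA genes, DKC1, the pseudouridine synthase, differed by -0.17 between the vectors and by -0.21 between the YAP mutant vector and untreated cells (limma, adjusted p = 0.850 and 0.290). GAR1, a core protein of the same particle, had differences of -0.19 and -0.18 in those comparisons, and its other 3 probes differed by -0.39 to -0.09 against untreated cells. NHP2, the remaining core protein measured, lay at 0.01 and -0.08. None of the 3 passed the test in any comparison.

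**Figure D3:**
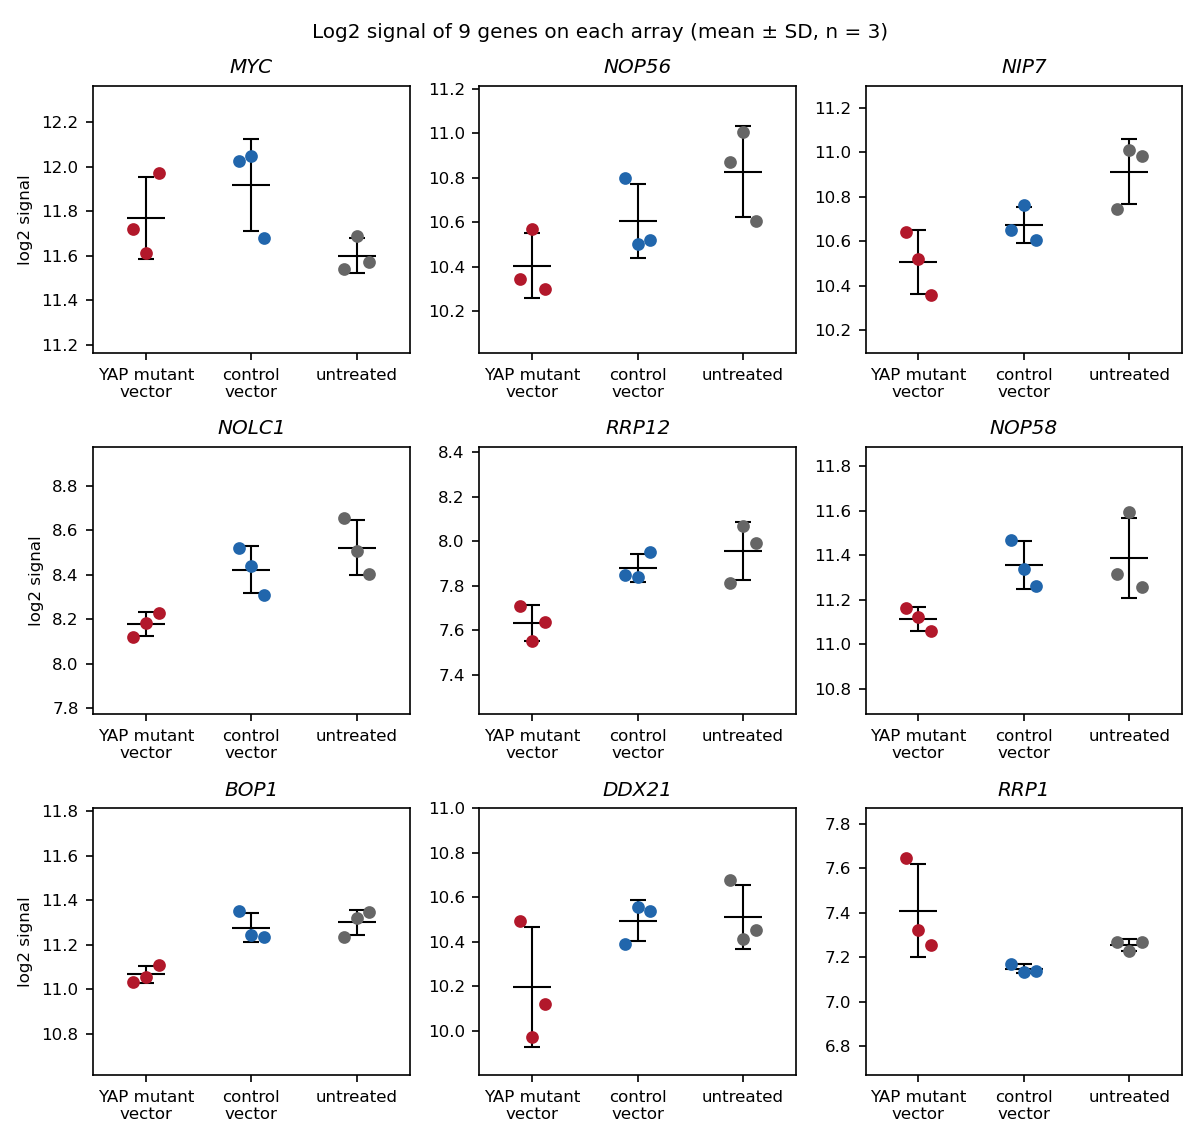
Log2 signal (vertical axis, each panel spanning the same number of log2 units) of 9 nucleolar genes on each array, with YAP mutant vector (red), control vector (blue) and untreated (grey) from left to right, where long bars are group means and short bars 1 SD (n = 3 arrays). The YAP mutant vector points of NOLC1, RRP12, NOP58 and BOP1 lie below all other points of their panels, those of NOP56 and NIP7 below the untreated ones, and MYC and RRP1 show no such order.

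All 10 small subunit genes had estimates below 0 between YAP mutant vector and untreated cells, from -0.33 for RRP12 to -0.05 for RRP9, and none passed the test. RRP12, a factor of small subunit maturation and export, had log2 signals of 7.71, 7.55 and 7.63 with the YAP mutant vector, 7.85, 7.84 and 7.95 with the control vector, and 7.81, 8.07 and 7.99 in untreated cells. Its YAP mutant vector arrays were again the lowest 3 of the 9. RRP12 differed by -0.25 ± 0.10 (SE) from the control vector (limma, adjusted p = 0.652) and by -0.33 from untreated cells (adjusted p = 0.0675), and passed the threshold without untreated replicate 1 (-0.40, adjusted p = 0.0428). Leaving out other single arrays brought the RRP12 difference from untreated cells to as little as -0.27. Over the 20 alternatives its adjusted p (limma) reached 0.238. BYSL, which encodes bystin, a protein of small subunit precursors, had log2 signals of 8.69, 8.66 and 8.57 with the YAP mutant vector, 8.68, 8.82 and 8.63 with the control vector, and 9.06, 8.86 and 8.81 in untreated cells. The vector groups overlapped each other, and the YAP mutant vector arrays lay below the untreated ones. BYSL differed by -0.07 ± 0.10 (SE) between the vectors (limma, adjusted p = 0.960), and by -0.27 between the YAP mutant vector and untreated cells (adjusted p = 0.144). Between the control vector and untreated cells its difference was -0.20 (adjusted p = 0.418).

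The other 8 genes of the small subunit lay closer to 0 against untreated cells. WDR75 and WDR43, which belong to the subcomplex of the small subunit processome that is also tied to ribosomal DNA transcription, differed by -0.17 and -0.12 between the vectors. IMP4 and IMP3, partners in the U3 snoRNP, differed by -0.16 and -0.10, and IMP4 was tight on the YAP mutant vector arrays (mean 11.11 ± 0.01, SD, n = 3) but not on the control vector arrays (11.27 ± 0.19, SD, n = 3). The symbol IMP3 is also an older name of IGF2BP3, an unrelated RNA-binding protein, and which gene the probe reads was not checked. NAT10, the RNA acetyltransferase, differed by -0.07 between the vectors and by -0.18 from untreated cells, with the YAP mutant vector arrays below the untreated ones. NOP14, UTP20 and RRP9, all of the small subunit processome, had estimates above 0 between the vectors (0.04, 0.06 and 0.05) and below 0 against untreated cells (-0.16, -0.10 and -0.05).

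BOP1, PES1 and WDR12 form the PeBoW complex, which is needed for maturation of large subunit RNA. BOP1 had log2 signals of 11.04, 11.06 and 11.11 with the YAP mutant vector, 11.35, 11.25 and 11.23 with the control vector, and 11.24, 11.32 and 11.35 in untreated cells. The YAP mutant vector arrays were the lowest, and the control vector and untreated arrays lay at the same level (difference -0.02). BOP1 differed by -0.21 ± 0.10 (SE) from the control vector (limma, adjusted p = 0.741) and by -0.23 from untreated cells (adjusted p = 0.181). WDR12 differed by -0.16 and -0.14 in the same comparisons by its brightest probe, and by -0.02 and -0.12 by its second. PES1 differed by -0.01 and -0.09, and the complex as a whole had no gene that passed the test.

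The 11 large subunit genes were the most mixed, with estimates between the vectors from -0.19 for EBNA1BP2 to 0.26 for RRP1. NIP7 (probe ILMN_1704305), an RNA-binding assembly factor that in yeast travels with large subunit precursors, had log2 signals of 10.64, 10.52 and 10.36 with the YAP mutant vector, 10.65, 10.76 and 10.61 with the control vector, and 10.75, 11.01 and 10.98 in untreated cells. All YAP mutant vector arrays were below all untreated arrays, and the control vector arrays lay between, overlapping both. NIP7 was 0.754 times its untreated level with the YAP mutant vector, a log2 difference of -0.41 ± 0.11 (SE; limma, adjusted p = 0.0272). Its difference from the control vector was -0.17 (adjusted p = 0.869), and that of the control vector from untreated cells was -0.24 (adjusted p = 0.318). The call was lost on leaving out YAP mutant vector replicate 2 (-0.41, adjusted p = 0.0584) or 3 (-0.33, adjusted p = 0.136), or untreated replicate 2 (-0.36, adjusted p = 0.124) or 3 (-0.37, adjusted p = 0.107), and with the common-median scaling of arrays (-0.57, adjusted p = 0.0814).

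MRTO4, a relative of the ribosomal stalk protein that holds its place in large subunit precursors, lay at nearly the same mean with either vector. It had log2 signals of 8.997, 8.795 and 8.897 with the YAP mutant vector, 8.899, 8.900 and 8.913 with the control vector, and 9.244, 9.322 and 8.973 in untreated cells. All control vector arrays were below the untreated ones, while YAP mutant vector replicate 1 overlapped untreated replicate 3. Its difference was -0.01 ± 0.11 between the vectors (SE, 95% interval -0.23 to 0.21), and -0.28 from untreated cells with either vector (limma, adjusted p = 0.136 for the YAP mutant vector and 0.222 for the control vector). RRP1, whose yeast relative acts in large subunit RNA processing, was the only nucleolar gene with non-overlapping groups in the higher direction. Its log2 signals were 7.65, 7.32 and 7.26 with the YAP mutant vector, 7.17, 7.13 and 7.14 with the control vector, and 7.27, 7.23 and 7.27 in untreated cells. YAP mutant vector replicate 1, a dim array, was the highest of the 9, and without it the difference between the vectors was 0.15 (limma, adjusted p = 0.965). With all arrays RRP1 differed by 0.26 ± 0.11 (SE) between the vectors (limma, adjusted p = 0.645) and by 0.15 from untreated cells (adjusted p = 0.484).

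The other 8 large subunit genes did not pass the test in any comparison. EBNA1BP2, which in yeast acts with RRS1, differed by -0.19 from the control vector with non-overlapping groups and by -0.12 from untreated cells. RRS1 itself, which in yeast helps to bring the small ribosomal RNA of the large subunit into the particle, differed by -0.03 and -0.27. PPAN, a relative of a yeast large subunit factor, differed by -0.09 and -0.27, and BRIX1, also of large subunit precursors, by -0.15 and -0.18. NOP2, an RNA methyltransferase of the large subunit, and NOP16 lay at -0.04 and -0.02 between the vectors. DDX18, an RNA helicase, and GNL3, the GTPase nucleostemin, lay at 0.07 and 0.01 against untreated cells by their brightest probes, while the other probes of GNL3 lay at -0.14 and -0.19.

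Of the nucleolar proteins with several functions, DDX21, an RNA helicase that acts in both ribosomal DNA transcription and RNA processing, had the lowest estimate between the vectors. Its log2 signals were 10.50, 9.97 and 10.12 with the YAP mutant vector, 10.39, 10.56 and 10.54 with the control vector, and 10.68, 10.41 and 10.45 in untreated cells. YAP mutant vector replicate 1, a dim array, lay at the level of the other groups, and the other two YAP mutant vector arrays were the lowest of the 9. DDX21 differed by -0.30 ± 0.12 (SE) from the control vector (limma, adjusted p = 0.645) and by -0.32 from untreated cells (adjusted p = 0.145). Without YAP mutant vector replicate 1 it was called against untreated cells (-0.47, adjusted p = 0.0293). Leaving out other single arrays brought that difference to as little as -0.21, and over the 20 alternatives its adjusted p (limma) reached 0.425. NCL, which encodes nucleolin, was measured by probes that disagreed in size. The brighter NCL probe differed by -0.09 between the vectors and by -0.19 from untreated cells (adjusted p = 0.356), and the dimmer one by -0.44 and -0.55.

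**Figure D4:**
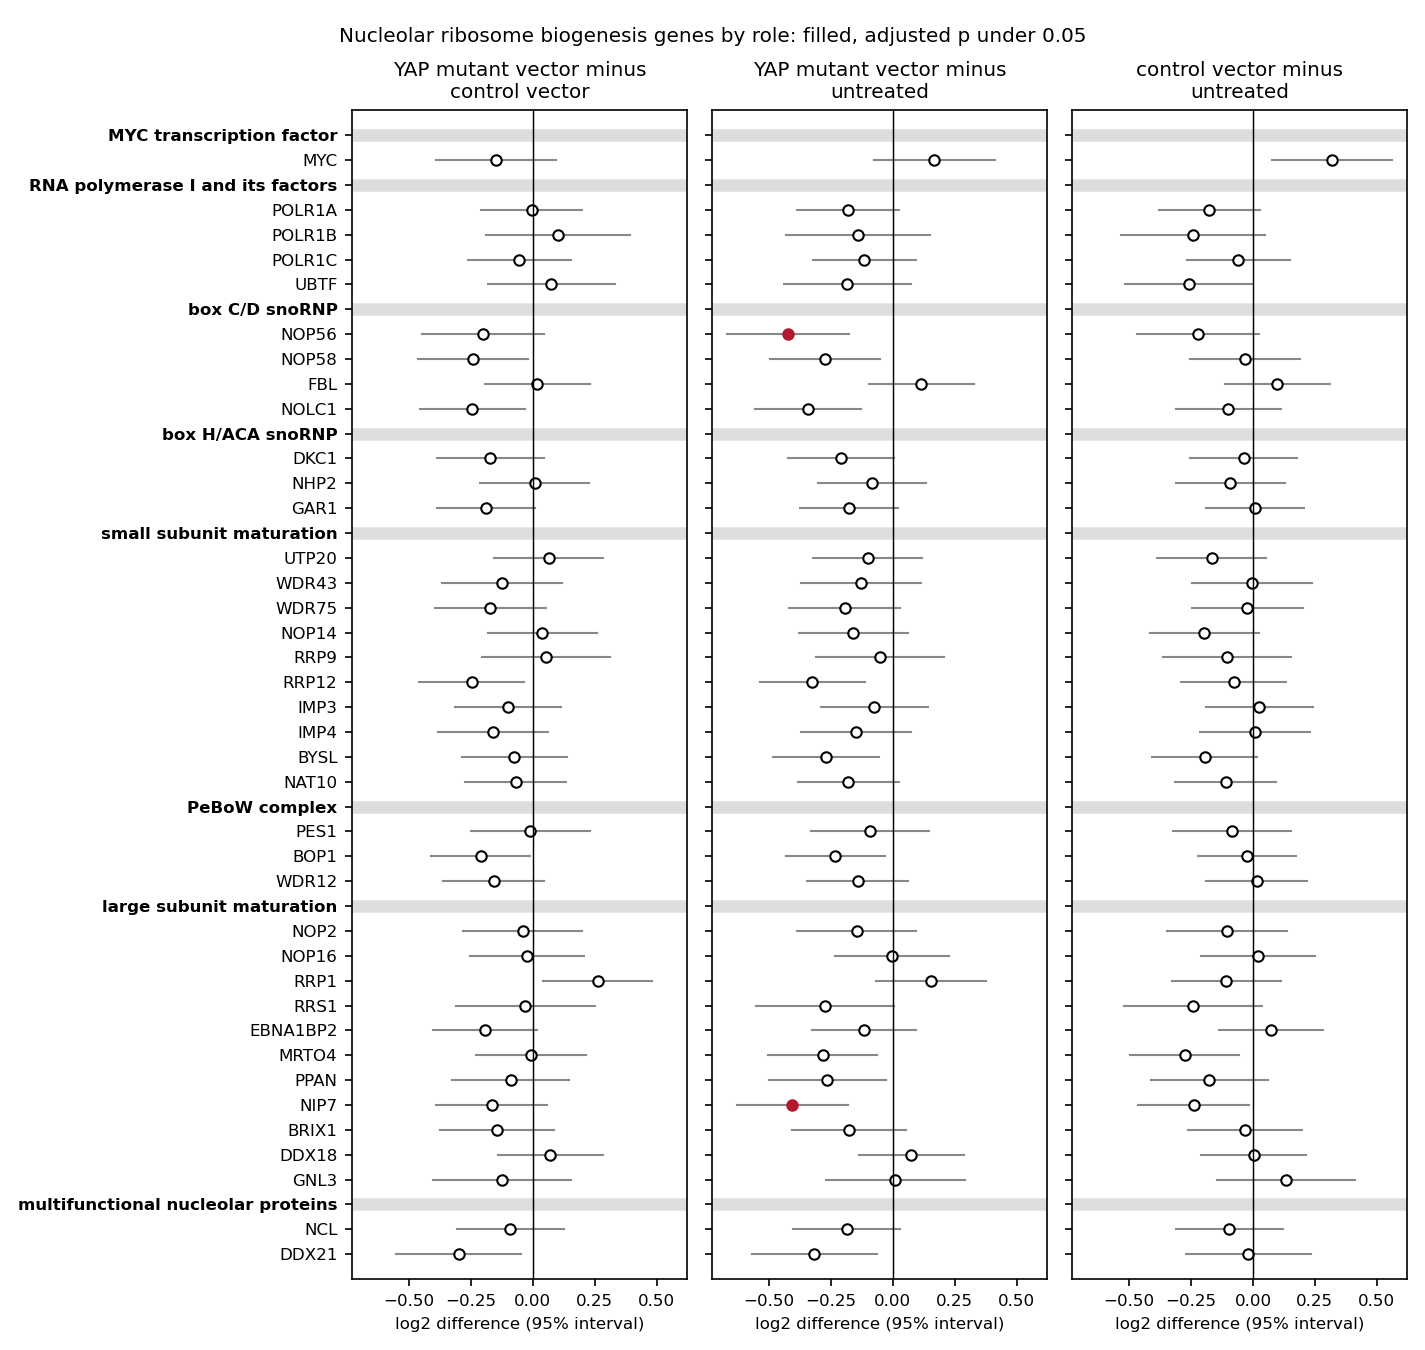
Log2 difference of the 38 tested nucleolar genes (horizontal axis) with its 95% interval from limma, by role (rows), in the 3 comparisons; filled points have an adjusted p under 0.05. Only NOP56 and NIP7, in the middle panel, are filled, and most points of that panel lie left of 0.

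Where several probes of a gene could be compared, signs mostly matched. Of 14 nucleolar genes with more than 1 probe above background, 4 had probes of opposite sign between the vectors, 2 between YAP mutant vector and untreated cells (GNL3 and NHP2) and 6 between control vector and untreated cells. The widest gap between probes was that of NCL, 0.35 between the vectors and 0.36 between YAP mutant vector and untreated cells. Between control vector and untreated cells it was that of NHP2, 0.28, one of the genes with opposite signs there.

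Genes with and without an E-box in the window overlapped in their differences, which ran from -0.19 to 0.06 with it and from -0.30 to 0.26 without it between the vectors. The 12 genes with an E-box had a median difference of -0.03 between the vectors, and the 19 tested genes with a window but no E-box had -0.10. Between YAP mutant vector and untreated cells the medians were -0.14 and -0.18, and between control vector and untreated cells -0.11 and -0.06. NOP56 and NIP7 are both among the genes without an E-box in the window. The tested genes without a window are outside this split and include several of the lowest estimates. Between the vectors they differed by -0.25 (RRP12), -0.24 (NOLC1), -0.24 (NOP58), -0.21 (BOP1), -0.15 (MYC), -0.03 (RRS1) and 0.07 (DDX18).

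Further ribosome biogenesis genes lay on the same side as the 40. Of 122 other such genes, 120 were tested. None of them was called between the vectors or between control vector and untreated cells, where 0.34% and 2.18% of all genes were. Between YAP mutant vector and untreated cells 1 was called (0.833%, a smaller share than the 5.17% of all genes, 1.81% in the lower direction), NOL11, a small subunit processome protein needed for ribosomal DNA transcription, which fell by 0.39 ± 0.11 (SE; limma, adjusted p = 0.0319). Its log2 signals were 10.19, 10.07 and 10.23 with the YAP mutant vector, 10.46, 10.35 and 10.19 with the control vector, and 10.40, 10.59 and 10.69 in untreated cells. The NOL11 call was lost without any of YAP mutant vector replicates 1, 2 and 3 or untreated replicates 2 and 3, with differences of -0.43 to -0.33 and adjusted p of 0.0553 to 0.150, without both dim arrays (-0.41, adjusted p = 0.0587) and with the common-median scaling (-0.55, adjusted p = 0.116). Of the 120 genes, 86 had an estimate below 0 between the vectors (71.7%, against 50.1% of all genes). There were 95 between YAP mutant vector and untreated cells (79.2%, against 51.6%) and 74 between control vector and untreated cells (61.7%, against 50.9%). Their medians were -0.07, -0.11 and -0.04. At an unadjusted p under 0.05, 6, 23 and 8 of the 120 were lower (5%, 19.2% and 6.67%, against 2.7%, 8.67% and 6.68% of all genes) and 2, 5 and 4 higher (against 3.79%, 9.71% and 7.24% of all genes) in these comparisons. The 52 small subunit factors among them had medians of -0.08, -0.12 and -0.05, the 50 large subunit factors -0.08, -0.07 and -0.03, and the 18 RNA polymerase I genes 0.01, -0.07 and -0.04.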

How the data were processed

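RNA of 9 NCI-H716 samples was measured on Illumina bead arrays, exported with BeadStudio per the submitters' processing notes (its version is not given there). The deposited table used here holds probe intensity for 47230 probes, without detection p-values. A second deposited table holds the authors' log2 values, which lay within 0.005 of log2 intensities quantile normalized without background correction. All columns were mapped to samples by the labels (0 columns left out), and 0 arrays were identical.

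Intensities were background corrected (normexp, offset 50), put on the log2 scale and quantile normalized with limma 3.58.1 (R 4.3.3). A probe was kept when its raw log2 signal exceeded, on at least 3 of 9 arrays, a floor set at that array's mode plus 1.645 SDs, with the SD taken from values under the mode. This left 20218 probes, and the brightest per gene gave 15589 genes, with each kept probe without a name counted as a gene of its own. Symbols were updated with RefSeq (GRCh38.p14): 27036 probes bore a current symbol, 4626 were updated, 12244 kept the name of the file and 3270 had none; 54 bore a date and were treated as unnamed. GAR1, NOP16 and RRP1 had probes under older symbols.

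All 9 arrays entered a single limma model that estimates a mean for each group (6 residual and 16.2 prior degrees of freedom), with 2-sided tests and Benjamini-Hochberg adjustment over 15589 genes. The model was tested on simulated data with planted differences larger than those of the nucleolar genes in the main fit. That check therefore does not cover differences of their size. A gene was called at an adjusted p under 0.05. The number of arrays, 3 per group, limits the precision. Values on every array are given for MYC, every called gene of the 40 and the 6 smallest p of each comparison; of the other lists, called genes and MAX, MXI1 and MNT are named, and a few genes are not reported here. The probes of NCL and the value of DDX21 without an array were singled out after their values were seen. The members and lists were chosen with earlier results of these data known. Equal replicate numbers did not pair the arrays: residuals correlated at -0.20 to 0.16 over 9 pairs. Alternatives covered background correction, normalization, filter, probe choice, prior variance, arrays in the fit and replicate block. Promoter windows came from RefSeq.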

Additional observations from a re-analysis of the deposited data

How the results depend on the processing

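Over 20 alternatives, 9 of which each left out 1 array, 44 results gave 880 values, and 814 of them were counted as unchanged. A single gene was unchanged when it kept its direction and its side of the threshold, and no single gene reversed its direction. A count was unchanged when equal to the main count or within a set ratio of it. A median was unchanged when it moved by less than the spread between arrays. Reversals were not looked for in counts and medians. The all-gene median between the vectors ran from -0.029 to 0.0036. With arrays scaled to a common median, genes called were 10 between the vectors, 182 between YAP mutant vector and untreated cells and 47 between control vector and untreated cells; 0 nucleolar genes were called, the nucleolar medians were -0.14, -0.30 and -0.14, and the all-gene medians against untreated cells were -0.08 and -0.05. Without both dim arrays, genes called were 27 between the vectors and 159 between control vector and untreated cells, with nucleolar medians of -0.15 and -0.047; NIP7 and DDX21 were then called between YAP mutant vector and untreated cells, and NOP56 was not. In that comparison the nucleolar genes called were 1 with no filter on dim probes (NIP7), 4 with the mean over probes (NOLC1 and NCL added), and 3 with no background correction, with the authors' normalized table or with a floor passed on 6 of 9 arrays (NOLC1 added). The number of all genes called in that comparison also moved, from 182 to 985 over the 20 alternatives, with 806 in the main fit. Leaving out each array in turn gave 0 to 3 nucleolar genes called there, 0 without YAP mutant vector replicate 3 or untreated replicate 2, and 475 to 874 genes in all. It gave 23 to 54 genes called between the vectors, with a nucleolar median of -0.12 to -0.053, and 157 to 371 between control vector and untreated cells, with a median of -0.087 to -0.047. These fits also hold fewer arrays, and why calls were gained or lost was not tested. With a replicate block, 64, 868 and 383 genes were called in the 3 comparisons, and NOP56 and NIP7 remained the 2 nucleolar calls. Small differences limit the data: with the spread between these arrays, log2 differences of the tested nucleolar genes had standard errors of about 0.1. TCOF1 and NPM1 could not be measured above background.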

Other observations

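Genes around MYC outside the nucleolus were examined in the same fit, from lists chosen with earlier results known. Of 40 other MYC target genes, 38 were tested. Estimates were below 0 for 32 between the vectors (84.2%, against 50.1% of all genes). They were below 0 for 30 between YAP mutant vector and untreated cells (78.9%, against 51.6%) and 21 between control vector and untreated cells (55.3%, against 50.9%). The medians were -0.08, -0.13 and -0.02. None of the 38 was called between the vectors or between control vector and untreated cells, where 0.34% and 2.18% of all genes were. In those 2 comparisons 4 (10.5%) and 1 (2.63%) of the 38 were lower at an unadjusted p under 0.05 (limma), against 2.7% and 6.68% of all genes. E2F2, an E2F factor of cell cycle entry, was the 1 gene called between YAP mutant vector and untreated cells (2.63%, a smaller share than the 5.17% of all genes), where 7 (18.4%, against 8.67% of all genes) were lower at an unadjusted p under 0.05. Its log2 signals were 10.59, 10.73 and 10.54 with the YAP mutant vector, 10.77, 10.57 and 10.54 with the control vector, and 11.01, 10.87 and 11.10 in untreated cells. Both vector groups lay below the untreated arrays, with differences of -0.37 (limma, adjusted p = 0.0424) and -0.36 (adjusted p = 0.0760), and -0.01 between the vectors. The E2F2 call was lost without any of YAP mutant vector replicates 1 and 3 or untreated replicates 1 and 3, at -0.36 to -0.32, without both dim arrays (-0.35, adjusted p = 0.116), with the common-median scaling (-0.53, adjusted p = 0.124) and with no filter on dim probes (-0.37, adjusted p = 0.0687).

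The partners and antagonists of MYC held no called gene among 9 tested of 12, where 0.34%, 5.17% and 2.18% of all genes were called in the 3 comparisons. At an unadjusted p under 0.05, 1 of the 9 was higher between the vectors (against 3.79% of all genes), 2 were higher between YAP mutant vector and untreated cells (against 9.71%), and 2 were higher and 1 lower between control vector and untreated cells (against 7.24% and 6.68%). MAX, the dimerization partner of MYC, differed by -0.01 between the vectors, -0.08 between YAP mutant vector and untreated cells and -0.07 between control vector and untreated cells. MXI1, a MAX-binding repressor that competes with MYC, differed by 0.03, 0.24 and 0.21 in the same comparisons (limma, adjusted p = 0.986, 0.181 and 0.350), and MNT, another such repressor, by 0.03, -0.03 and -0.06.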
